A study of Mus musculus with 18 samples.

Results

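Plasmacytoid dendritic cells (pDCs) grown from bone marrow with Flt3 ligand and harvested at 0 h, without imiquimod, were described. They came from 6 of the 18 RNA-seq libraries of the series. The libraries were taken by their labels: 3 carried the vehicle label at 0 h and 3 were labelled untreated at 0 h. All 54532 genes of the count table were considered, of which 24470 had at least 1 count in these libraries and 14876 were high enough over the series to be tested. The marrow came from wild-type C57BL/6 mice and was cultured for 7 days with Flt3 ligand at 80 ng/mL. Cells were then enriched on beads against B220 to a routine purity of 80%, checked by flow cytometry as B220-positive, CD11b-negative cells with intermediate CD11c. The vehicle is named LAL, which the series spells out as Limulus amebocyte lysate, a reagent for detecting endotoxin. Whether cells received the lysate itself or the water supplied with such a reagent is not stated, nor how long the vehicle was on the cells of the 0 h libraries. Vehicle libraries at 6 h and 16 h, 3 each, served for comparison with cells kept longer in culture. The imiquimod libraries were not compared, but they entered the choice of genes to test, the scaling and the shared estimate of spread. A fit of only the 0 h libraries tested 13467 genes.

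pDCs are a dendritic cell type known for releasing large amounts of type I interferon when nucleic acids reach Toll-like receptor 7 (TLR7, a sensor of single-stranded RNA) or TLR9 (a sensor of unmethylated CpG DNA) in their endosomes. Their identity is held by the transcription factor E2-2, encoded by Tcf4, together with partners such as Spib, Runx2 and Bcl11a. Bone marrow cultures with Flt3 ligand are known to give conventional dendritic cells of both main types beside pDCs, and B220 is also carried by B cells.

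The total count was 11926957, 11423956 and 11453665 in the vehicle libraries at 0 h, against 10849784, 12087109 and 11243157 in the untreated ones. Protein-coding genes held 83.4% to 85.1% of the counts of a library, mitochondrial rRNA 5.65% to 6.59%, and the rRNA-like gene models Gm26917, Gm42418 and Gm23935 together 4.94% to 6.2%. Without those classes, every pair of the 6 libraries differed by more than counting noise (chi-square per gene 1.22 to 1.91, where counting noise alone gives 1), so none was treated as a repeat of another. Untreated replicate 3 stood nearer to the vehicle libraries (1.24 to 1.28) than to the other untreated ones (1.55 and 1.67). It also had the most Gm23935, a 57-base gene model, with 11836 CPM (counts scaled to library size), against 4849 to 6374 CPM in the other 5 libraries. Levels are given below as TPM, counts divided by exonic length and scaled to a common total over protein-coding genes, wherever genes are set against each other, and as TMM-scaled CPM wherever libraries are.

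The culture at 0 h, called resting here only for being without imiquimod, expressed 11290 of 22033 annotated protein-coding genes at 1 TPM or more. Of these, 8925 were at 10 TPM or more and 88 at 1000 TPM or more. The number at 1 TPM was 11198 when the longest transcript gave the length and 10605 when the scaling ran over all genes. Among protein-coding genes other than ribosomal protein and mitochondrial ones, the highest level was that of Psap (mm10 chromosome 10, 60277627 to 60302597), the precursor of the saposins that help lysosomes degrade sphingolipids, at 12335 ± 348 TPM (mean and SD over the 6 libraries, as for all TPM values below). Actb, cytoplasmic actin, followed at 11223 ± 187 TPM and the elongation factor gene Eef1a1 at 8279 ± 229 TPM. Cd74, the invariant chain that guides MHC class II molecules, stood at 7065 ± 168 TPM, and Mpeg1, a pore-forming protein of phagocytes, at 5591 ± 62.1 TPM.

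The 25 highest genes of that kind together held 9.29% of the TPM, and 19 of them kept their place among the 25 when the longest transcript gave the length. Among them were Ctss (cathepsin S, which trims the invariant chain) at 2485 ± 74.0 TPM, Cst3 (cystatin C) at 2924 ± 86.3 TPM and Grn (progranulin) at 1674 ± 20.4 TPM. The MHC class II genes H2-Eb1, H2-Aa and H2-Ab1 stood at 2214, 1766 and 1694 TPM. Tyrobp, the adaptor DAP12 that carries the signal of Siglec-H, reached 3446 ± 53.8 TPM. The histone genes Hist1h4k, Hist1h4f and Hist1h1c were also among the 25, at 1872, 1679 and 1806 TPM, but the H4 genes have near-identical copies, so that their separate levels are uncertain.

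Genes that define pDCs were expressed throughout. All 14 transcription factor genes and all 28 surface and other marker genes listed for pDCs were at 1 TPM or more, and 31 of these 42 genes reached 100 TPM. Siglech (ENSMUSG00000051504.18, chromosome 7, 55768178 to 55778925), which encodes the pDC receptor Siglec-H, was the highest at 1812 ± 27.2 TPM and stood among the 25 genes above. It had 1105, 1122 and 1097 CPM in the vehicle libraries, against 1097, 1119 and 1118 CPM in the untreated ones. These values overlap and span a very narrow range. Bst2, the tetherin antigen recognised by pDC antibodies, reached 1520 ± 18.2 TPM, Ly6d 1125 ± 32.9 TPM, and Ccr9, a gut-homing chemokine receptor of pDCs, 547 ± 13.9 TPM.

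Among the regulators, Irf8 (ENSMUSG00000041515.10, chromosome 8, 120736358 to 120756694), which dendritic cell development needs, was highest at 1498 ± 22.7 TPM. Spib, an Ets factor of pDCs, followed at 727 ± 14.2 TPM and Runx2, which controls pDC exit from bone marrow, at 712 ± 21.8 TPM. Tcf4 stood at 295 ± 13 TPM, with 1420, 1529 and 1509 CPM in the vehicle libraries, against 1432, 1410 and 1466 CPM in the untreated ones. Those groups overlap. Bcl11a was at 181 ± 3.84 TPM and Zeb2, a repressor that favours the pDC fate, at 210 ± 13.8 TPM. The lowest of the regulators was Cbfa2t2 at 25.7 ± 0.399 TPM. Over the 42 pDC genes the median coefficient of variation between the 6 libraries was 3.35%, against 4.5% for all genes at 10 CPM or more. These sets were not matched for level, so the difference cannot be read as steadier expression of the pDC genes.

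The genes behind the flow cytometry check of purity were all detected. Ptprc, of which B220 is a splice form that gene counts do not separate, stood at 667 ± 20.2 TPM, Itgax (CD11c) at 601 ± 13.6 TPM and Itgam (CD11b) at 17.7 ± 0.675 TPM. Signals from the cells outside the stated purity are in the same libraries, and in bulk RNA fewer cells of a type and less RNA per cell cannot be told apart.

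**Figure D1:**
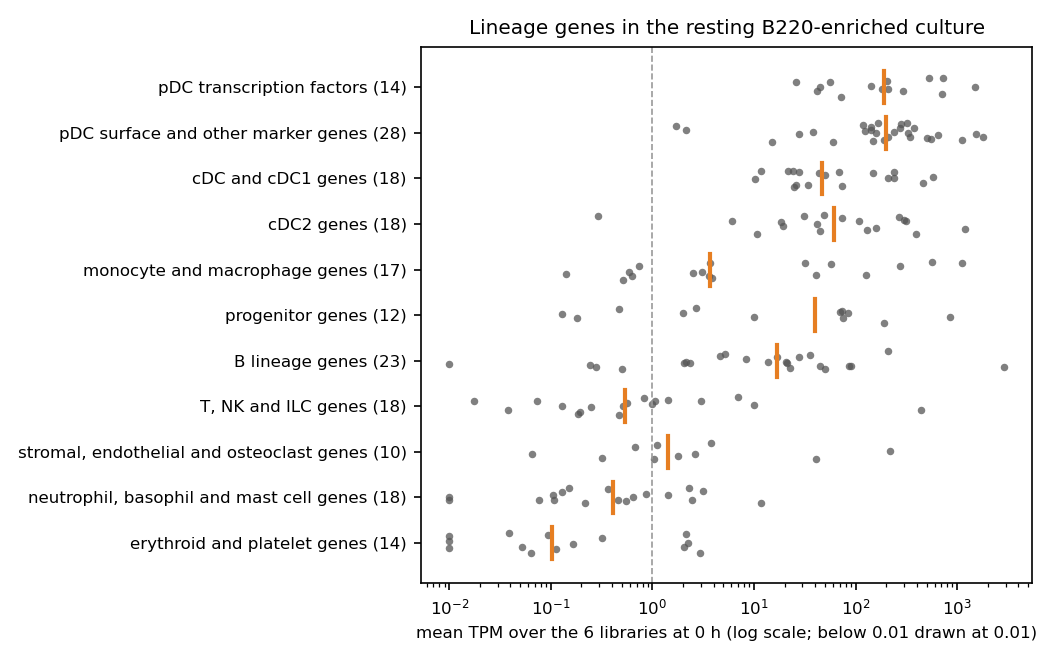
Mean TPM over the 6 libraries at 0 h (log axis) of every member of 11 lineage lists, 1 point per gene, with the orange bar at the list's median, the number of members in brackets and the dashed line at 1 TPM. The pDC lists have their medians at 192 and 198 TPM, and the erythroid and platelet list has its median at 0.103 TPM.

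Genes of conventional dendritic cells were present at lower levels, as the plot of lineage lists shows. All 18 listed genes of conventional and type 1 dendritic cells were at 1 TPM or more, with a list median of 46.9 TPM, against medians of 192 and 198 TPM for the pDC lists. Wdfy4, needed for cross-presentation, led them at 573 ± 8.87 TPM, and the Flt3 receptor gene, which pDCs share, stood at 466 ± 14.9 TPM. Other genes of this list were lower, with Clec9a (a receptor for dead cells) at 209 ± 10.7 TPM. Xcr1 (a chemokine receptor) stood at 26.0 ± 1.07 TPM and the factor Batf3 at 11.8 ± 0.877 TPM. Which cells these transcripts came from was not tested. Zbtb46, a factor of conventional dendritic cells, was at 50.2 ± 0.498 TPM.

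Of the 18 genes listed for type 2 conventional dendritic cells, 17 were at 1 TPM or more, with a median of 61.6 TPM. Ccr2, a chemokine receptor that pDCs and monocytes also carry, was highest at 1182 ± 28.7 TPM, and the factors Klf4 and Irf4 stood at 312 ± 12 and 297 ± 14.1 TPM. Sirpa was at 270 ± 6.3 TPM and Cd209a at 131 ± 8.33 TPM, while Esam, a marker of a splenic subset, was at 0.294 ± 0.214 TPM.

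Monocyte and macrophage genes were split. Lyz2 (lysozyme M) stood at 1104 ± 57.1 TPM, Ms4a6c at 564 ± 10.1 TPM, Cd68 at 275 ± 19.7 TPM and Csf1r, the receptor of colony-stimulating factor 1, at 126 ± 3.01 TPM. The defining macrophage genes were near 0, with Mertk at 0.514 TPM and C1qa at 0.583 TPM, and 12 of the 17 listed genes were at 1 TPM or more. The summed level of the list was 725 to 742 CPM in the vehicle libraries, against 722 to 755 CPM in the untreated ones, ranges that overlap.

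B cell genes were detected, 19 of 23 at 1 TPM or more. Ighm, the immunoglobulin mu heavy chain gene, stood far above the rest at 2909 ± 58.2 TPM. Igkc, the kappa light chain gene, was at 211 ± 8.15 TPM. The more restricted genes were lower still, with Ms4a1 (CD20) at 22.7 ± 1.22 TPM and Pax5, the factor that commits cells to the B lineage, at 13.9 ± 0.58 TPM. Ebf1 was at 8.32 ± 0.567 TPM, and of the surrogate light chain genes Vpreb2 had no count and Igll1 stood at 0.278 TPM. The summed level of the list was 1258 to 1275 CPM in the vehicle libraries, against 1235 to 1266 CPM in the untreated ones. How much of the Ighm level came from B cells was not tested.

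Genes of other blood lineages were low or absent. In the T, NK and innate lymphoid list 6 of 18 genes were at 1 TPM or more, and most of its level was Il7r at 444 ± 10.7 TPM, while Cd3e stood at 0.185 TPM and Ncr1 at 0.196 TPM. Neutrophil, basophil and mast cell genes reached 1 TPM in 5 of 18 cases, the highest being Prtn3, a granule protease gene, at 11.7 ± 0.881 TPM. Ly6g and Epx had no counts. The erythroid genes Hbb-bs and Hba-a2 also had none, and 4 of the 14 genes of that list were at 1 TPM or more. Progenitor genes were partly retained, with Kit at 69.9 ± 2.27 TPM, Myb at 74.2 ± 4.86 TPM and Cd34 at 2.01 ± 0.301 TPM. The Y-linked gene Ddx3y stood at 180 ± 5.67 TPM and Xist at 0.11 ± 0.0613 TPM over the 6 libraries.

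The endosomal nucleic acid receptors were expressed at 0 h, 14 of the 15 listed genes at 1 TPM or more. Tlr9 (ENSMUSG00000045322.10, chromosome 9, 106222598 to 106226883) stood at 340 ± 7.74 TPM and Tlr7 (ENSMUSG00000044583.13, chromosome X, 167304929 to 167330558) at 294 ± 12.8 TPM. Tlr9 had 217, 211 and 209 CPM in the vehicle libraries, against 210, 215 and 222 CPM in the untreated ones. Tlr7 had 213, 225 and 221 CPM in the vehicle libraries, against 204, 217 and 223 CPM in the untreated ones. For both receptors the groups overlap, and no library stands apart.

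Several helpers of these receptors were as high or higher. Unc93b1, which carries endosomal TLRs out of the endoplasmic reticulum, stood at 1009 ± 11.8 TPM, and Hsp90b1, the chaperone gp96 that folds them, at 1024 ± 9.41 TPM. Slc15a4, a lysosomal transporter needed for TLR7 and TLR9 responses, was at 349 ± 6.98 TPM, and 5430427O19Rik, listed with the helpers, at 121 ± 3.14 TPM. The next receptors in order were Tlr12, which senses profilin, at 87.4 ± 4.38 TPM, Tlr3, the double-stranded RNA sensor, at 25 ± 2.47 TPM, and Tlr11 at 24.2 ± 2.26 TPM. The levels of Tlr3 and Tlr11 do not differ beyond their spread. Tlr13, a sensor of bacterial ribosomal RNA, was at 11.5 ± 1.99 TPM and Tlr8 at 0.973 ± 0.433 TPM. Tlr8 had 1.03, 0.575 and 0.906 CPM in the vehicle libraries, against 0.353, 0.397 and 0.515 CPM in the untreated ones, which do not overlap but lie near the floor of detection.

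**Figure D2:**
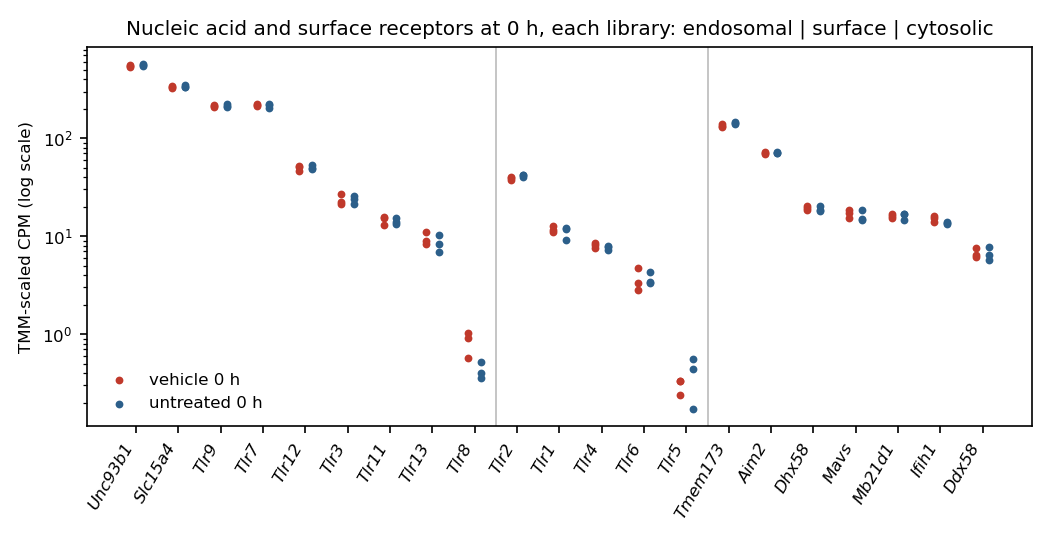
TMM-scaled CPM (log axis) of 21 receptor and sensor genes, 1 point per library, vehicle at 0 h in red to the left of untreated at 0 h in blue; CPM is not divided by gene length and serves to compare libraries. The groups overlap for the main endosomal receptors, with Tlr9 at 209 to 222 CPM and Tlr7 at 204 to 225 CPM over the 6 libraries.

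Of 9 surface receptor genes 8 were at 1 TPM or more. Cd180, an endotoxin-receptor homologue of B cells and dendritic cells, stood at 761 ± 39.3 TPM and its partner Ly86 at 146 ± 8.02 TPM. Tlr2, which senses lipoproteins, was at 73.7 ± 3.01 TPM, while Tlr4, the endotoxin receptor, was at 7.84 ± 0.479 TPM and its co-receptor genes Ly96 and Cd14 at 12.1 ± 2.45 and 31.8 ± 2.89 TPM. Tlr5, the flagellin receptor, stood at 0.396 ± 0.156 TPM.

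All 15 cytosolic sensor genes were at 1 TPM or more. Tmem173, which encodes STING, led at 280 ± 10.6 TPM, and the DNA sensor gene Aim2 stood at 112 ± 3.19 TPM. Mb21d1, the gene of the DNA sensor cGAS, was at 21.5 ± 1.35 TPM. The RNA helicase sensors were low, with Ifih1 (MDA5) at 9.75 ± 0.825 TPM and Ddx58 (RIG-I) at 5.24 ± 0.613 TPM. All 21 genes of the TLR7 and TLR9 signalling list were at 1 TPM or more, from Irf5 at 285 ± 4.83 TPM and the adaptor gene Myd88 at 167 ± 5.17 TPM to Ikbke at 3.93 ± 0.528 TPM. Irf7, the factor that drives interferon alpha genes, stood at 72.2 ± 3.87 TPM.

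The interferon genes themselves were silent at this depth. Of 20 listed type I and type III interferon genes, 19 had no count in any of the 6 libraries, over 68984628 counts in all. A count of 0 allows a level of up to 0.0435 CPM over these libraries, a limit of 3 counts that covers counting error only. Ifnk, an interferon of skin, had 7 counts in the vehicle libraries and 1 in the untreated ones, too few to compare. Interferon-stimulated genes were present at widely different levels, all 34 at 1 TPM or more with a median of 9.45 TPM. Ly6e stood at 1175 ± 16.2 TPM and Ifitm3 at 327 ± 12.1 TPM, whereas Isg15 was at 8.57 ± 1.89 TPM, Rsad2 (viperin) at 2.65 ± 0.567 TPM and Ifit1 at 1.41 ± 0.797 TPM.

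Receptor genes for cytokines and homing signals were well represented, 17 of 18 and 16 of 17 at 1 TPM or more. The interferon receptor genes Ifnar2 and Ifnar1 stood at 459 ± 7.96 and 438 ± 10.2 TPM, and Ifnlr1, the receptor of type III interferon, at 0.31 ± 0.163 TPM. Itgb7, an integrin chain of gut homing, was at 814 ± 18.3 TPM and Cxcr4, which holds cells in marrow, at 300 ± 12.9 TPM. Of the death ligand and cytotoxic effector genes, 8 of 15 were at 1 TPM or more. Klrd1 (CD94) stood at 809 ± 32.5 TPM and Klrk1 (NKG2D) at 105 ± 3.07 TPM, but Tnfsf10 (TRAIL) was at 1.29 ± 0.255 TPM, Prf1 (perforin) at 0.0887 ± 0.0974 TPM, and Gzma and Gzmb had no counts.

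The vehicle was then set against untreated cells at 0 h, the comparison of the 2 controls of the study. No gene passed the threshold in edgeR's quasi-likelihood test (Benjamini-Hochberg adjusted p under 0.05 over all 14876 genes), which is 0% of the genes tested. At an unadjusted p under 0.05 there were 708 genes (4.76%), and the libraries of the groups did not overlap for 10.9% of genes. DESeq2's Wald test called 0 genes and gave 347 at an unadjusted p under 0.05. Nothing in the labels states that replicate libraries were separate animals or cultures, so the p-values measure the spread between libraries alone, which may be technical.

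The libraries were close enough for this to bound most changes. Of 8759 genes at 10 CPM or more, 8751 (99.9%) had a 95% interval of the fold change inside 1.5-fold in either direction, and their median absolute log2 fold change was 0.04. Between 1 and 10 CPM 53.3% of 4230 genes were bounded so, and below 1 CPM none of 1887 was. Of the 42 pDC genes 40 were inside 1.5-fold. For Siglech the log2 fold change was 0.00 (95% interval -0.06 to 0.05). For Tlr7 it was 0.03 (SE 0.05, taken as the absolute log2 fold change over the square root of F, as for every SE here), and for Tlr9 -0.02 (SE 0.04). Of the 432 listed genes that were tested none was called, and 28 (6.48%) had an unadjusted p under 0.05.

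**Figure D3:**
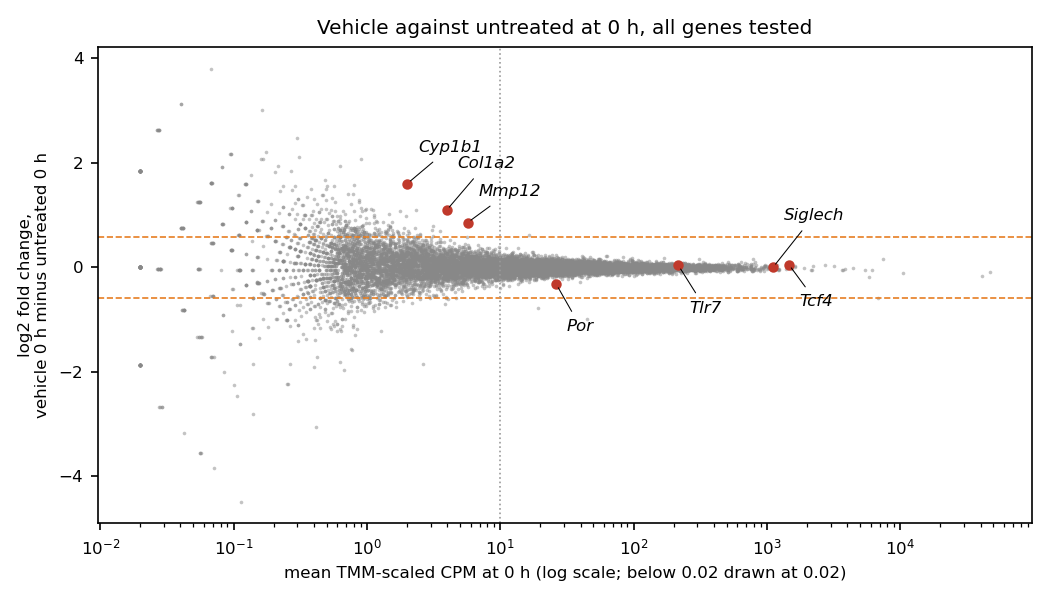
Log2 fold change of vehicle minus untreated at 0 h against mean TMM-scaled CPM (log axis) for the 14876 genes tested; the dashed lines mark 1.5-fold, the dotted line 10 CPM and the red points named genes. To the right of the dotted line 99.9% of genes had a 95% interval inside 1.5-fold.

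Genes that endotoxin and NF-kappaB are known to induce were looked at because the vehicle takes its name from an endotoxin reagent. Of 32 listed genes 31 were tested and 0 were called, and their median log2 fold change was -0.01, against -0.01 over all genes tested. Tnf, an early endotoxin-induced cytokine gene, had 9.14, 8.8 and 9.48 CPM in the vehicle libraries, against 8.99, 9.13 and 9.95 CPM in the untreated ones. Il6, the interleukin 6 gene, had 0.238, 0.247 and 0.0824 CPM in the vehicle libraries, against 0.441, 0.635 and 0.172 CPM in the untreated ones. Nfkbia, which encodes the feedback inhibitor of NF-kappaB, had 58.3, 56.6 and 51.3 CPM in the vehicle libraries, against 55.0, 52.5 and 56.9 CPM in the untreated ones. For all of these genes the groups overlap. The 34 interferon-stimulated genes likewise gave 0 calls, with a median log2 fold change of 0.00.

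All 13 MHC class II presentation genes had a log2 fold change below 0, from -0.09 for H2-Oa to -0.01 for March1, and none was called. All 13 were also below 0 with DESeq2 size factors, with DESeq2's Wald test and with the replicate block. With scaling by library totals alone, 9 of the 13 were below 0, so that the shared sign was not kept in every setting.

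The lowest p of the comparison belonged to Mmp12 (ENSMUSG00000049723.14, chromosome 9, 7344381 to 7369499), the macrophage elastase gene. It had 7.79, 5.01 and 9.15 CPM in the vehicle libraries, against 3.88, 3.65 and 4.63 CPM in the untreated ones. Every vehicle library stands above every untreated one. The log2 fold change was 0.85 (SE 0.17) and edgeR's adjusted p was 0.0506, just above the threshold. Over the alternatives run Mmp12 was called in 8 and not called in 8. The adjusted p ranged from 0.000368 without vehicle replicate 2 to 1 without untreated replicate 2 or without vehicle replicate 3. Without those last libraries the log2 fold changes were 0.78 and 0.66.

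Several matrix and stromal genes at low level leaned the same way. In the list of stromal, endothelial and osteoclast genes 7 were tested, 6 had a log2 fold change above 0, and the median was 0.72, against -0.01 over all genes tested, with 0 called. Col1a2, a collagen chain gene of fibroblasts, had 5.25, 3.86 and 7.09 CPM in the vehicle libraries, against 1.76, 2.7 and 3.09 CPM in the untreated ones. The groups do not overlap, with a log2 fold change of 1.09 and an SE of 0.33 (edgeR adjusted p = 0.969). Col1a2 was called in 3 alternatives, with no expression filter (adjusted p = 0.000404), in edgeR's fit of the 6 libraries at 0 h alone (0.0298) and in that fit with the replicate block (0.00142), and over all alternatives the adjusted p reached 1.

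Cyp1b1 (chromosome 17, 79701537 to 79715061), a cytochrome gene, and Col12a1 (chromosome 9, 79598991 to 79718831), a collagen gene, were among the genes of lowest p and are named after their values were seen. Cyp1b1 had 2.31, 2.06 and 4.7 CPM in the vehicle libraries, against 1.06, 0.476 and 1.46 CPM in the untreated ones. Cyp1b1 gave a log2 fold change of 1.60 with an SE of 0.35 (edgeR adjusted p = 0.147). It was called in 4 alternatives, with no expression filter (adjusted p = 0.000382), with the replicate block in edgeR's fit of the 6 libraries (0.00116), without untreated replicate 3 (0.0373) and without vehicle replicate 2 (0.0366), and the adjusted p was 1 without untreated replicate 2 or vehicle replicate 3. Col12a1 had 2.7, 2.71 and 4.2 CPM in the vehicle libraries, against 1.23, 1.19 and 2.06 CPM in the untreated ones. Col12a1 gave 1.10 (SE 0.27, edgeR adjusted p = 0.228) and was called in 1 alternative, with the replicate block in the fit of the 6 libraries (0.0264). For both genes no vehicle library reaches down to the untreated range, and vehicle replicate 3 is the highest. Pecam1 and Cdh5, the endothelial genes that pDCs and other blood cells can also carry, did not share this pattern, with log2 fold changes of 0.00 and 0.08.

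**Figure D4:**
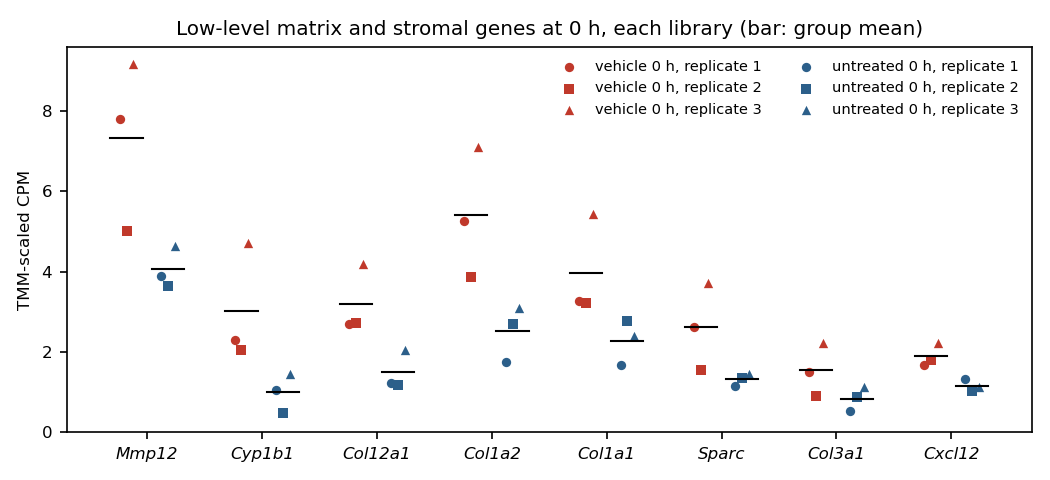
TMM-scaled CPM of 8 low-level genes in each library at 0 h, vehicle in red to the left of untreated in blue, with marker shapes for replicates and bars at the group means; the genes were chosen after their values were seen. None passed the threshold, and vehicle replicate 3 is the highest library for each gene.

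Among the 20 genes of lowest p some were lower with vehicle. The size of that difference was largest for gene models and genes near or below 1 CPM, with log2 fold changes of -1.97 for Gm6904, -1.82 for Gm38355 and -1.23 for BC024063 (edgeR adjusted p = 0.147, 0.755 and 0.634). Por, the cytochrome P450 reductase gene, had 25.2, 21.4 and 23.4 CPM in the vehicle libraries, against 29.4, 29.9 and 28.5 CPM in the untreated ones. Every vehicle library is below every untreated one, with a log2 fold change of -0.33 (SE 0.07, edgeR adjusted p = 0.147). Srp14, a subunit gene of the signal recognition particle, gave -0.29 (SE 0.07, edgeR adjusted p = 0.147). With the replicate block in edgeR's fit of the 6 libraries both were called (adjusted p = 0.0326 for Por and 0.0187 for Srp14), and Srp14 also with no expression filter (0.0366).

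Malat1 had a higher value in every vehicle library than in any untreated one. This nuclear long non-coding RNA had 7462, 8065 and 7944 CPM in the vehicle libraries, against 7116, 6614 and 7243 CPM in the untreated ones, which do not overlap (log2 fold change 0.16, edgeR adjusted p = 0.321). It was called with no expression filter (adjusted p = 0.000382), in edgeR's fit of the 6 libraries alone (0.0298) and in that fit with the block (0.00175).

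The state of the culture at 0 h was further set against cultures kept 6 h and 16 h with vehicle. Here time in culture, plating and the time of contact with vehicle move together and cannot be told apart. Of the genes tested 4979 (33.5%) were higher at 0 h and 4780 (32.1%) were lower (edgeR, adjusted p under 0.05), which is 65.6% in either direction. A change of at least 1.5-fold was called for 3188 genes (21.4%). The counts of this comparison take the mean of both 0 h groups minus the mean of both later vehicle groups.

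Immediate-early genes, which cells are known to switch on within minutes of a disturbance, were high at 0 h. In this respect the culture called resting was not quiet. Of 30 listed genes 24 were called higher and 5 lower, against 33.5% and 32.1% of all genes tested. Their median log2 fold change was 0.93, against 0.00 over all genes tested. Fosb (ENSMUSG00000003545.3, chromosome 7, 19302696 to 19310051), a subunit gene of the AP-1 transcription factor, had 164, 160 and 169 CPM in the vehicle libraries at 0 h and 172, 170 and 151 CPM in the untreated ones, against 1.63, 1.47 and 0.739 CPM with vehicle at 6 h and 0.643, 1.15 and 0.87 CPM at 16 h. All 6 libraries at 0 h stand far above all later ones, with a log2 fold change of 7.24 (SE 0.08, edgeR adjusted p = 9.07e-65). Its partner gene Fos gave 3.44 (SE 0.10), the stress factor gene Atf3 3.48 (SE 0.09) and the nuclear receptor genes Nr4a2 and Nr4a1 3.74 and 2.80. Btg2, Junb and Gadd45b went the other way, with log2 fold changes of -0.67, -0.20 and -1.09.

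The stretch around the start of Fosb, Fos and Nr4a1 is shown to let the half-site of the cAMP response element, TGACG, be read in it. Fosb and Fos were taken for their high level at 0 h, and Nr4a1 for its matches, after these were seen. Each sequence runs 5′ to 3′ on the gene's strand from 250 bases before to 50 bases after the start annotated by RefSeq (GRCm38.p6), with TGACG on either strand in capitals, which reads CGTCA where it lies on the other strand.
Fosb, chr7:19309996-19310295, minus strand: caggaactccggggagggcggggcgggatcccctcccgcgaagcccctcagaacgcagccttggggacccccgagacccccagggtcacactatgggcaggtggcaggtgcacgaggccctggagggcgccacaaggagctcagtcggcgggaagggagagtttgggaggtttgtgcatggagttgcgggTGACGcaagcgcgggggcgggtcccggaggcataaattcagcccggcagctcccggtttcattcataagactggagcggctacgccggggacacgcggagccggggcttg
Fos, chr12:85473640-85473939, plus strand: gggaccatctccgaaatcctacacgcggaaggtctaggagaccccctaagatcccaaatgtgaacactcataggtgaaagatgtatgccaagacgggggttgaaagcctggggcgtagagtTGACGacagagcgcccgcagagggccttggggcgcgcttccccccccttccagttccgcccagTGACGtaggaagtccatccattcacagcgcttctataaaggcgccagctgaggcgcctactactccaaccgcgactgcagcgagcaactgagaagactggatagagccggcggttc
Nr4a1, chr15:101266596-101266895, plus strand: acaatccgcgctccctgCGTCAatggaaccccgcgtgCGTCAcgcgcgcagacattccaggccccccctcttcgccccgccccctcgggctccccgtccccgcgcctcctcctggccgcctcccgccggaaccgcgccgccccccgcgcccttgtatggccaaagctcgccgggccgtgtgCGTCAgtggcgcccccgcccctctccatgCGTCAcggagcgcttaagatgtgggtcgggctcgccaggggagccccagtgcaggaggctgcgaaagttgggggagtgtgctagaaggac
The search did not cover every stretch of the genome, and only 25 of the 30 listed immediate-early genes were in it. The motif was found in 15 of these 25 genes. Among all that was searched it was found in 20.8% of 32851 stretches of this length and 23% of 27025 genes. The shares given here hold only for the genes searched, and the listed genes left out could change them. The Fosb stretch held 1 match, that of Fos 2 and that of Nr4a1 4. Of all stretches searched 1.03% held 3 or more, but Nr4a1 was taken for its matches, so its place among these was set by that choice. The full palindrome TGACGTCA was present for 2 of the 25 genes, against 1.79% of all stretches and 2.03% of all genes searched. A CArG box, read as CCWWWWWWGG with W for A or T, was present for 3 of the 25 genes, against 1.81% of all genes searched. A match describes the letters only.

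Other activation genes followed Fosb. Cd69 (chromosome 6, 129267325 to 129275436), an early activation antigen, had 87.6, 90.9 and 93.4 CPM in the vehicle libraries at 0 h and 90.1, 100 and 90 CPM in the untreated ones, against 7.39, 8.17 and 9.03 CPM with vehicle at 6 h and 6.25, 5.85 and 5.13 CPM at 16 h. The groups are far apart, with a log2 fold change of 3.75 (SE 0.05, edgeR adjusted p = 1.74e-67). Lmna, the lamin A gene, gave 3.24 (SE 0.11). Of the 31 genes tested in the endotoxin and NF-kappaB list 18 were higher at 0 h and 7 lower, against 33.5% and 32.1% of all genes tested. The chemokine genes Ccl4 and Ccl3 gave log2 fold changes of 4.66 and 3.41. Neither met the naming rule for this comparison, which asked for called genes at 10 CPM or more with groups apart.

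Several genes of dendritic cell maturation were low at 0 h. Fscn1 (ENSMUSG00000029581.14, chromosome 5, 142960343 to 142973185), the actin bundler fascin of mature dendritic cells, had 6.12, 6.91 and 7.66 CPM in the vehicle libraries at 0 h and 6.35, 5.16 and 6.95 CPM in the untreated ones, against 25.7, 25.7 and 28.1 CPM with vehicle at 6 h and 187, 164 and 162 CPM at 16 h. Every 0 h library is below every later one (log2 fold change -3.37, SE 0.06, edgeR adjusted p = 3.36e-54). Apol7c, an apolipoprotein L family gene, gave -4.56 (SE 0.05), the chemokine gene Ccl22 -3.91 (SE 0.07) and the migration receptor gene Ccr7 -2.37 (SE 0.04). Of 18 maturation and co-stimulation genes 9 were lower at 0 h and 5 higher, against 32.1% and 33.5% of all genes tested. Among the higher ones was Cd86, a co-stimulatory ligand gene, at 1.67. Lad1, Adcy6 and Ankrd33b complete the lowest 6 genes by the naming rule, at -3.70, -3.27 and -3.12.

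**Figure D5:**
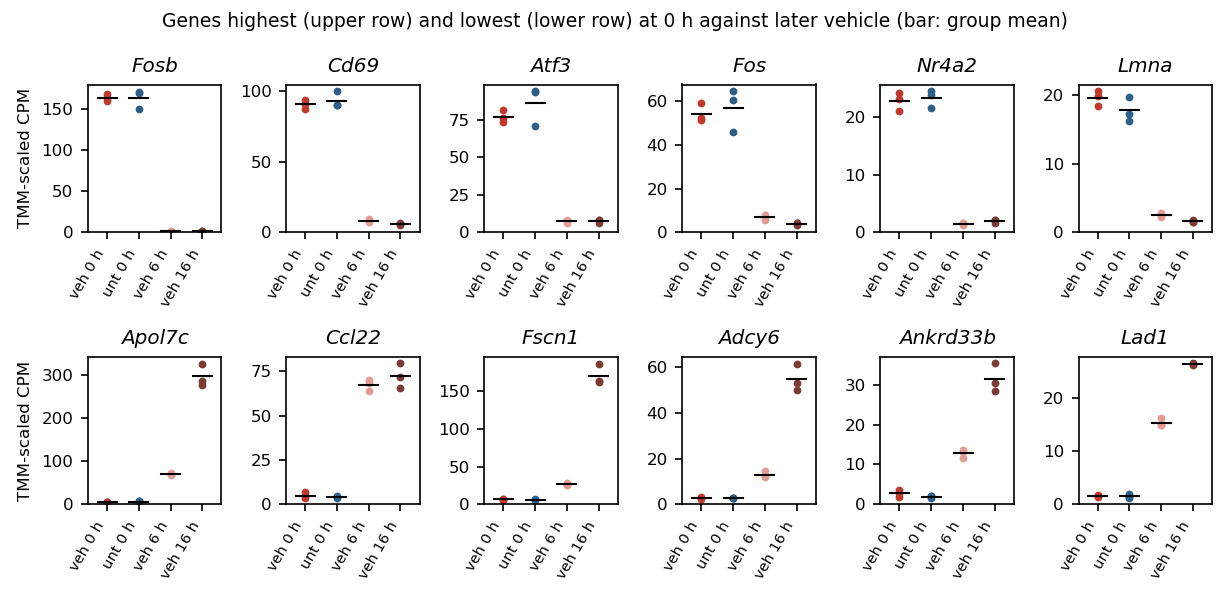
TMM-scaled CPM of the 6 highest (upper panels) and 6 lowest (lower panels) genes by the naming rule, 1 point per library and a bar at each group mean, for vehicle and untreated at 0 h and vehicle at 6 h and 16 h. Fosb stands at 151 to 172 CPM at 0 h and below 2 CPM later, and Fscn1 at 5.16 to 7.66 CPM at 0 h and 162 to 187 CPM at 16 h.

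The culture at 0 h held more proliferation and secretory transcripts than the later vehicle cultures. Of 35 cell cycle genes 32 were higher at 0 h and none lower (median log2 fold change 0.77), against 33.5% and 32.1% of all genes tested. By mean level, 21 of the 35 were above both later times and 14 lay between them. Mcm3, a helicase subunit of replication, was at 1.62, the cyclin gene Ccnd2 at 1.78 and Mki67 at 0.87. Mki67 stood at 243 ± 8.03 TPM at 0 h and Top2a at 211 ± 3.99 TPM. Mki67, a marker of cycling cells, had 445, 441 and 460 CPM in the vehicle libraries at 0 h and 431, 455 and 426 CPM in the untreated ones, against 442, 385 and 431 CPM with vehicle at 6 h and 139, 140 and 144 CPM at 16 h. The 6 h values overlap those at 0 h, and the 16 h values are far below both. Of 23 endoplasmic reticulum genes 21 were higher and none lower (median 0.38), against the same shares of all genes tested. The chaperone gene Hspa5 (BiP) was at 0.64. The pDC lists were mixed, where 33.5% of all genes tested were higher and 32.1% lower. Of the 14 regulators 4 were higher and 5 lower, with Irf8, Spib and Bcl11a at -0.28, -0.39 and -0.53. Of the 28 surface and other markers 14 were higher and 11 lower, with Siglech at -0.31 and Ccr9 at 0.32. The later times differed for these markers, whose summed level was 6976 to 7100 CPM at 0 h, 6047 to 6180 CPM at 6 h and 7806 to 8013 CPM at 16 h. Siglech had means of 1110, 1154 and 1636 CPM at 0 h, 6 h and 16 h. The sensors Tlr7 and Tlr9 gave -0.03 and 0.05 and were not called. Itgam (CD11b), at 16.1 CPM at 0 h and 5.14 CPM with later vehicle, gave 1.65. The summed level of the monocyte and macrophage list was 722 to 755 CPM at 0 h against 556 to 605 CPM later. The part of such cells in these differences was not tested.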

How the data were processed

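RNA was depleted of rRNA and made into directional libraries read as 75-nt pairs, per the labels' protocols. The deposited values are raw gene counts made by the authors before deposit, with reads aligned by STAR to mm10, per the submitters' processing notes. The counting program, strand setting and annotation are not given in the sources used here, so overlapping and antisense genes cannot be separated with certainty. Exon lengths and positions came from GENCODE M21, which held 99.9% of the gene IDs when versions were ignored.

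From the counts, genes were filtered with edgeR's filterByExpr (minimum count 10), scaled by TMM and fitted with edgeR 4.0.16 (R 4.3.3, quasi-likelihood, robust) over all 18 libraries in their 6 groups, without a block. DESeq2 1.42.0 was an alternative. Calls needed a Benjamini-Hochberg adjusted p under 0.05. TPM used the union of exons of a gene. That denominator, protein-coding genes only, was chosen after the data were seen. Named genes were the 25 highest in TPM, the 6 highest and 6 lowest called changes from later vehicle at 10 CPM or more with groups apart, and list members. No gene was called between vehicle and untreated, so genes named there were chosen after their values were seen. The members and gene lists were chosen with earlier results of these data known. The limit for a count of 0 covers counting error only, whereas the 95% intervals of fold changes include the spread between libraries. The edgeR fit was run on simulated counts, with the same dispersion for every gene and changes placed only in well-counted genes. That run does not test genes at low counts or of uneven spread.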

Additional observations from a re-analysis of the deposited data

Results flagged for a closer look

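The summed level of the TLR7 and TLR9 signalling genes was 1745 CPM in untreated replicate 1, against 1773 to 1790 CPM in the other 5 libraries at 0 h. Its gap to the nearest library was 0.631 of the whole range of the 6 libraries, above Dixon's critical value for 6 samples. The sums of 29 lists were looked at, and chance marks about 1 in 20.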

How the results depend on the processing

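For vehicle against untreated at 0 h, 0 genes were called higher, 0 lower and 0 at 1.5-fold. Higher, lower and 1.5-fold calls numbered 1, 0 and 1 with DESeq2 size factors, with library totals and without rRNA and mitochondrial genes. They numbered 4, 1 and 3 with no expression filter, and 4, 0 and 2 in a fit of the 6 libraries at 0 h alone. They were 0, 0 and 0 with at least 1 CPM in 3 libraries, with DESeq2's Wald test and, chosen after seeing the data, without the 3 rRNA-like genes too. Leaving out a library gave 0 to 4 higher, 0 to 3 lower and 0 to 3 at 1.5-fold, the most without untreated replicate 3; the cause was not tested. With the replicate number as a block, 0, 0 and 0 genes were called. The block in a fit of the 6 libraries alone, also chosen after seeing the data, called 10, 4 and 6. Same-numbered vehicle and untreated libraries deviated together weakly (correlations of 0.113, -0.03 and 0.102), so the numbers were not taken to pair them. For 0 h against later vehicle, the alternatives gave 4614 to 5206 genes higher and 4439 to 4951 lower. Genes below 1 CPM were too thinly counted to bound a 1.5-fold change.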
